A study of Homo sapiens with 27 samples.

Results

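Sprouty and SPRED proteins are feedback inhibitors of signalling from receptor tyrosine kinases through RAS to the kinase ERK. ERK activity switches many of these genes on, and their proteins then damp the signal that induced them. Sprouty proteins act near the receptor and RAS and bind adaptors and ubiquitin ligases such as GRB2 and CBL, and SPRED proteins carry the RAS inactivator neurofibromin, the product of NF1, to the membrane. In melanoma with mutant BRAF the cascade is driven from below RAS, so the inhibitor genes are known as readouts of ERK output. The 6 genes described here, SPRY1, SPRY2, SPRY4, SPRED1, SPRED2 and SPRED3, were taken by name from the 58721 genes of the count table. The remaining Sprouty gene, SPRY3, was handled with the other inhibitors of the pathway.

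The study sequenced RNA of A375, an established human melanoma line with mutant BRAF, as 27 libraries in 9 groups of 3. The 3 control groups carried a guide RNA against GFP, labelled WT, and were given DMSO, 20 nM trametinib or 1 µM vemurafenib for 24 hours. The other 6 groups were TADA2B knockout cells made with guide 1 or guide 2, each given DMSO, 20 nM trametinib or 1 µM vemurafenib for the same time. Trametinib inhibits the kinase MEK, which activates ERK, vemurafenib inhibits mutant BRAF, which activates MEK, and TADA2B is a subunit of the SAGA histone acetyltransferase complex. The 9 groups share 1 cell line. Neither the clonality of a knockout population nor the origin of replicate libraries (separate cultures or repeats of 1 culture) is given in the sources used here. P-values thus measure only the spread among the sequenced libraries, and that spread may be technical.

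The depth was 67502300 to 92513726 counts per library, and 25199 genes passed the filter on low counts, all 6 family members among them. TADA2B transcripts, as CPM (counts scaled by library total and TMM factor), averaged 31.2 ± 0.931 (SD, n = 3) in control cells with DMSO, and in knockout cells they lay at 97.6% of that with guide 1 and 91.8% with guide 2. With trametinib they were at 84.5% and 71.0% of control cells in the same drug, and with vemurafenib at 74.4% and 65.1%. The knockout difference in TADA2B was not called with DMSO (-0.08 ± 0.04 on the log2 scale, adjusted p = 0.0629) and was called with trametinib (-0.37 ± 0.04) and vemurafenib (-0.52 ± 0.04). Transcript counts do not show whether TADA2B protein was lost. Of 7 melanocyte lineage markers 6 reached 1 CPM in at least 1 library, with SOX10 between 266.9 and 1121 CPM and TYR at no more than 0.281 CPM. Of the markers of other cell types, 2 of 6 for keratinocytes, 4 of 5 for fibroblasts, 2 of 5 for leukocytes and 5 of 5 for endothelium reached 1 CPM.

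The promoters of the family are shown because its members moved together under both drugs. RefSeq (GRCh38.p14) gives 11 start sites for the 6 genes, and the 250 bases before each were searched on both strands for 4 motifs: CCGGAAG, a site for ETS factors, TGACTCA, a site for AP-1, CACGTG, an E-box, and GGGCGG, a GC box. ETS and AP-1 factors are activated by ERK in many cells. The ETS letters occurred in 1 window, that of the SPRY1 start at 123398386 on chromosome 4, where they begin 67 bases before the start, and the AP-1 letters in 1, that of the SPRED3 start at 38389791 on chromosome 19, 60 bases before it. All 250 bases of this SPRY1 window and 126 of the 250 bases of this SPRED3 window lie in annotated exons. Capitals mark those 2 matches in the stretches below, each of 27 bases on the plus strand at chr4:123398309-123398335 and chr19:38389721-38389747.
SPRY1: ccctccgcagCCGGAAGggggccgcgg
SPRED3: cgttgctgggTGACTCAgtgagctttg
The next stretches set 2 Sprouty genes beside a SPRED gene, all on the minus strand, with GC boxes in capitals. Each is the part of the 250-base window before a start that lies outside annotated exons, 80 bases for SPRY4, 250 for SPRY2 and 212 for SPRED2. They lie at chr5:142324418-142324497 for SPRY4, chr13:80341127-80341376 for SPRY2 and chr2:65432638-65432849 for SPRED2.
SPRY4: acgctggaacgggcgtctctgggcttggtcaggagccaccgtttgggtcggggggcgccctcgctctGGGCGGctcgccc
SPRY2: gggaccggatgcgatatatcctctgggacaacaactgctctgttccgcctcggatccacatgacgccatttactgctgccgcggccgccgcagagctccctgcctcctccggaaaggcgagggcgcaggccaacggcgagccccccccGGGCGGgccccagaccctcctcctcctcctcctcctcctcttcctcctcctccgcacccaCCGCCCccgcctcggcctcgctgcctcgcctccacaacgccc
SPRED2: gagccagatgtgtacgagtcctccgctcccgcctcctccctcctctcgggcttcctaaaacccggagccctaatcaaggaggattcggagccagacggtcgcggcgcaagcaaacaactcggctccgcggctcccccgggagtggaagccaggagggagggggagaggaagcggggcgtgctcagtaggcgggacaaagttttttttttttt
Neither the ETS nor the AP-1 letters occurred in the windows of SPRY4, SPRY2, SPRED1 or SPRED2. Of the 11 windows, GC boxes occurred in 1 window each of SPRY1, SPRY2, SPRY4, SPRED1 and SPRED3 and in neither window of SPRED2. Among 35116 RefSeq windows of the same length, 8.52% held the ETS letters, 4.2% the AP-1 letters, 6.34% the E-box and 42.6% the GC box, and no family window held the E-box. These matches describe the letters of 250 bases and do not show binding. Enhancers and sequence farther from the start were not searched.

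The first question was which inhibitor transcripts MEK inhibition lowered in cells with intact TADA2B. All 6 fell with trametinib, where 32.5% of all genes tested fell (edgeR quasi-likelihood test, Benjamini-Hochberg adjusted p under 0.05). The family's median log2 fold change was -3.90, against 0.06 over all genes. The family split into a deep group, the 3 Sprouty genes, which fell 51.1-fold to 269.3-fold, and a shallow group, the 3 SPRED genes, which fell 3.10-fold to 4.39-fold. In bulk RNA a lower count can mean fewer cells with the transcript or less of it per cell, and these cannot be told apart.

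SPRY4 (ENSG00000187678, chr5:142310427-142326455, minus strand on hg38) encodes a Sprouty protein that is a standard readout of ERK output. Its level in control cells was 439.7, 443.3 and 446.3 CPM in the 3 DMSO libraries. With trametinib it was 1.48, 1.83 and 1.62 CPM, and with vemurafenib 4.17, 4.40 and 4.32 CPM. No library of one treatment reached the range of another. The log2 fold change was -8.07 ± 0.05 (SE) with trametinib (adjusted p = 4.22e-59) and -6.69 ± 0.05 with vemurafenib (adjusted p = 5.8e-58), and SPRY4 ranked 13 among the most lowered of 25199 genes with trametinib and 23 with vemurafenib. On the opposite strand the antisense RNA SPRY4-AS1 overlaps SPRY4 without shared exon bases. It had 242 to 277 counts per control DMSO library and 0 to 4 with trametinib. Whether the counting used strand is not given, and even its highest count is small beside the 31095 to 34176 counts of SPRY4 in the same group.

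SPRY2 (ENSG00000136158, chr13:80335976-80340951, minus strand) encodes the Sprouty protein best known for binding CBL. In control cells it measured 249.0, 246.7 and 253.2 CPM with DMSO, 5.34, 4.48 and 4.83 CPM with trametinib and 22.4, 23.7 and 21.8 CPM with vemurafenib. The treatments did not overlap, and vemurafenib left more transcript than trametinib. Its log2 fold change was -5.67 ± 0.06 with trametinib (adjusted p = 1.89e-52) and -3.46 ± 0.05 with vemurafenib (adjusted p = 1.14e-46).

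SPRY1 (ENSG00000164056, chr4:123396795-123403760, plus strand), a Sprouty gene with a known part in kidney development, was the least abundant member, at 18.4, 17.4 and 19.4 CPM in control cells with DMSO. With trametinib it was nearly undetected, at 0.147, 0.121 and 0.0543 CPM, which rests on 4 to 12 counts per library and 26 in all. With vemurafenib it was 0.445, 0.528 and 0.486 CPM, from 37 or 38 counts per library. The groups did not overlap, but the trametinib level has a wide relative error. The log2 fold change was -7.38 ± 0.17 with trametinib (adjusted p = 1.63e-37) and -5.24 ± 0.13 with vemurafenib (adjusted p = 1.69e-35). The error of 0.17 is computed back from the test and is likely too small. The comparison of vemurafenib with trametinib, which uses the same trametinib libraries, has an error of 0.29.

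The SPRED genes kept a sizeable share of their transcripts. SPRED1 (ENSG00000166068, chr15:38252326-38357249, plus strand), the gene whose loss causes Legius syndrome, measured 159.2, 153.7 and 150.6 CPM with DMSO in control cells, 50.03, 49.4 and 50.1 CPM with trametinib and 85.3, 80.9 and 85.5 CPM with vemurafenib. SPRED2 (ENSG00000198369, chr2:65310851-65432637, minus strand), its close relative, measured 105.5, 105.9 and 108.2 CPM with DMSO, 27.9, 25.8 and 26.8 CPM with trametinib and 53.4, 48.9 and 52.4 CPM with vemurafenib. SPRED3 (ENSG00000188766, chr19:38388421-38399587, plus strand), the least studied SPRED, measured 43.0, 47.3 and 43.9 CPM with DMSO, 10.1, 9.73 and 10.8 CPM with trametinib and 17.3, 18.1 and 17.5 CPM with vemurafenib. In each of the 3 genes DMSO was highest, trametinib lowest and vemurafenib between, with no overlap. Trametinib left 32.3% of the DMSO level of SPRED1, 25.2% of SPRED2 and 22.8% of SPRED3, and vemurafenib 54.3%, 48.4% and 39.4%. The log2 fold changes with trametinib were -1.63 ± 0.05 for SPRED1, -1.99 ± 0.04 for SPRED2 and -2.13 ± 0.05 for SPRED3, with adjusted p of 4.92e-31 or less.

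**Figure D1:**
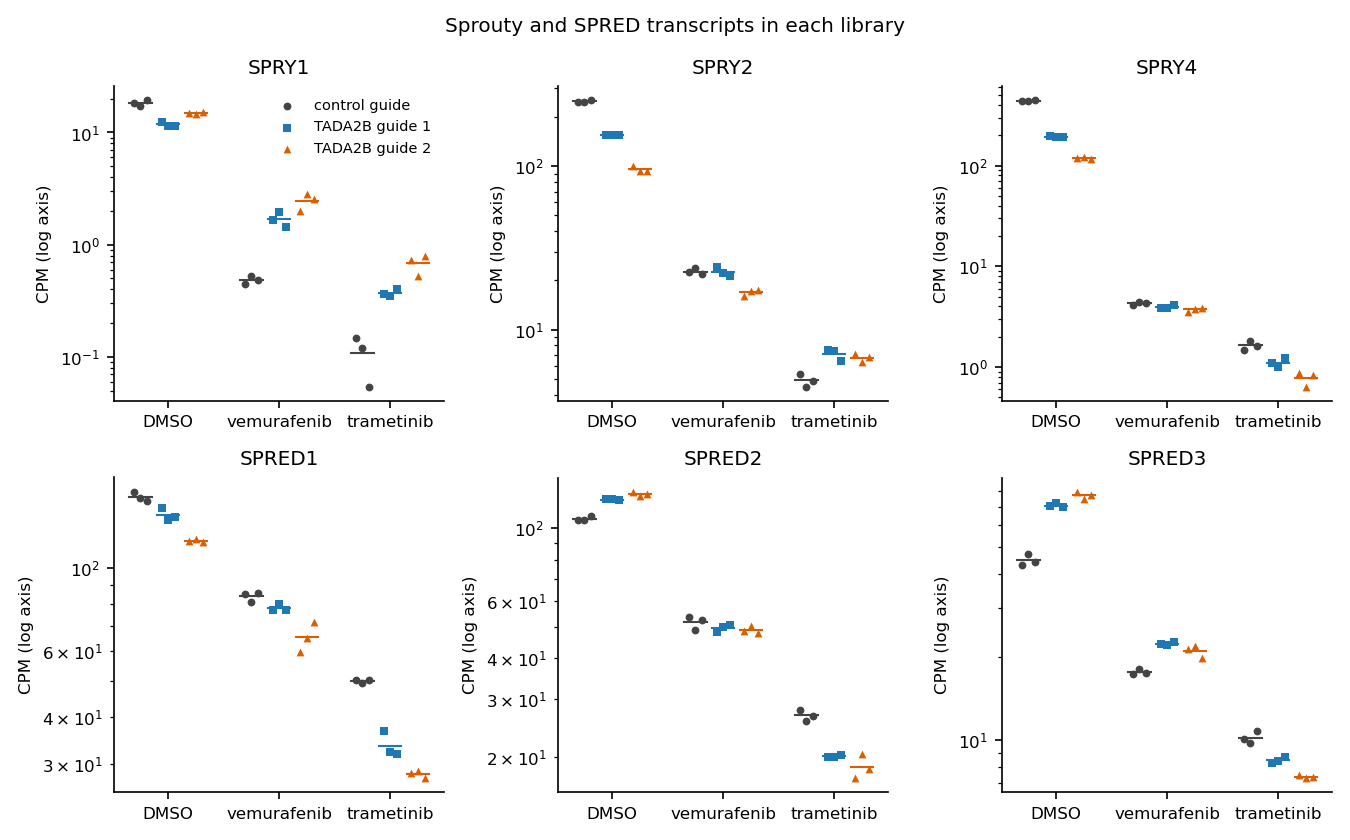
CPM of each family member in the 27 libraries, on log axes that differ between panels. Points are libraries, short lines group means of 3 libraries, and colours the control guide and TADA2B guides 1 and 2. In all 6 panels trametinib libraries lie lowest within a population, and in the SPRY1 panel the knockout libraries lie above the control libraries in both drugs although they lie below them in DMSO.

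With vemurafenib all 6 members fell in control cells, where 31.6% of all genes fell, and the family's median log2 fold change was -2.40 against 0.06 over all genes. Both drug comparisons use the same DMSO libraries, so they are not independent. The direct comparison of the drugs does not use DMSO. All 6 members were higher with 1 µM vemurafenib than with 20 nM trametinib in control cells, where 8.78% of all genes were higher. The log2 difference was 2.21 ± 0.06 for SPRY2 (adjusted p = 2.68e-32), 2.14 ± 0.29 for SPRY1, 1.38 ± 0.08 for SPRY4, 0.94 ± 0.04 for SPRED2, 0.79 ± 0.05 for SPRED3 and 0.75 ± 0.05 for SPRED1, with every adjusted p at 1.3e-07 or less. Each drug was used at 1 dose, so the comparison is of these doses. The error of SPRY1 is the largest because its trametinib libraries hold so few counts.

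Knockout cells showed the same directions. All 6 members fell with trametinib in knockout cells (34.3% of all genes fell) and with vemurafenib (33.1% fell), and all 6 were higher with vemurafenib than with trametinib (10.9% were higher). They did so with each guide taken alone, where 31.4% (guide 1) and 30.2% (guide 2) of all genes fell with trametinib, 30% and 29.4% fell with vemurafenib, and 8.04% and 5.88% were higher with vemurafenib than with trametinib. With guide 1, trametinib lowered SPRY4 175.6-fold, SPRY1 31.5-fold and SPRY2 21.8-fold, and with guide 2 it lowered SPRY4 151.9-fold, SPRY1 21.7-fold and SPRY2 14.3-fold. The SPRED genes fell 4.11-fold to 8.35-fold with guide 1 and 4.18-fold to 10.4-fold with guide 2, and in both populations SPRED3 fell most and SPRED1 least of the 3.

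**Figure D2:**
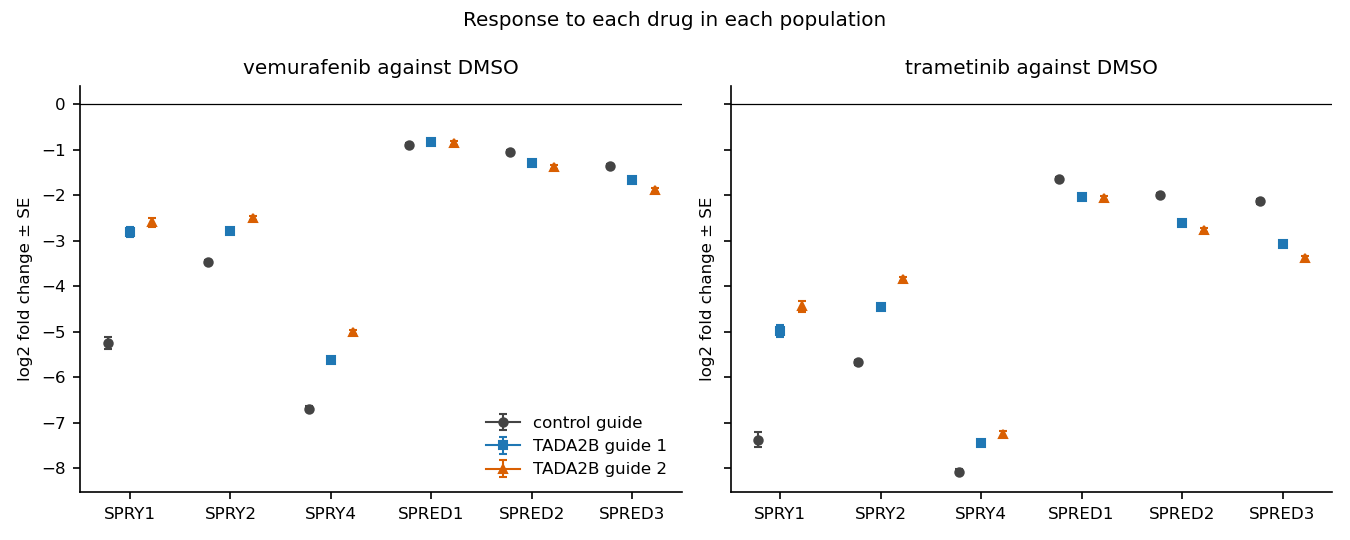
Log2 fold change of each member against DMSO of the same population with vemurafenib (left) and trametinib (right), with 1 symbol per cell population. Bars are standard errors computed back from the test, which can be too small for large falls. Every point lies below 0, the Sprouty genes lie lower than the SPRED genes, and knockout points lie above control points for the Sprouty genes and below them for the SPRED genes, except SPRED1 with vemurafenib, whose 3 points lie between -0.88 and -0.82.

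The second question was what the TADA2B knockout did to the family without a drug. With DMSO 4 members were lower and 2 higher in knockout cells than in control cells, in a comparison where 28.6% of all genes were lower and 29.3% higher, so being called at all does not set the family apart. SPRY4, SPRY2, SPRY1 and SPRED1 were lower, and SPRED2 and SPRED3 were higher. The family's median log2 difference was -0.37 against 0.0011 over all genes.

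SPRY4 showed the widest gap. It measured 196.7, 193.6 and 191.4 CPM with guide 1 and 119.5, 121.7 and 116.3 CPM with guide 2, against at least 439.7 CPM in the control libraries. The log2 difference was -1.54 ± 0.03 over both guides (adjusted p = 8.82e-41), and guide 2 lay below guide 1 by a log2 difference of -0.70 ± 0.03 (adjusted p = 3.26e-22). SPRY2 measured 155.6, 154.4 and 155.1 CPM with guide 1 and 99.7, 93.8 and 94.0 CPM with guide 2. It too was lower in every knockout library than in every control library, with a log2 difference of -1.03 ± 0.03 (adjusted p = 5.97e-30), and guide 2 again lay below guide 1 (-0.69 ± 0.04, adjusted p = 9.87e-19). SPRY1 fell less, to 12.5, 11.3 and 11.5 CPM with guide 1 and 14.9, 14.6 and 15.2 CPM with guide 2 (log2 difference -0.47 ± 0.07, adjusted p = 3.33e-07), and here guide 2 lay above guide 1.

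Among the SPRED genes the directions differed. SPRED1 averaged 137.9 ± 5.38 CPM (SD, n = 3) with guide 1 and 117.9 ± 1.22 CPM with guide 2, against 154.5 ± 4.38 CPM in control cells, a log2 difference of -0.28 ± 0.04 (adjusted p = 1.53e-08). SPRED2 averaged 121.7 ± 0.471 CPM and 126.7 ± 1.78 CPM against 106.5 ± 1.45 CPM, a log2 difference of 0.22 ± 0.03 (adjusted p = 8.38e-08). SPRED3 measured 70.1, 71.9 and 69.7 CPM with guide 1 and 79.1, 74.6 and 77.3 CPM with guide 2, against no more than 47.3 CPM in control cells, a log2 difference of 0.72 ± 0.04 (adjusted p = 3.88e-22). For each of the 3 genes no knockout library overlapped the control libraries. The guide difference was called for SPRED1 (-0.23 ± 0.04) and SPRED3 (0.13 ± 0.04, adjusted p = 0.0338) and not for SPRED2 (0.06 ± 0.04, adjusted p = 0.39), in a comparison where 11.9% of all genes were called. The SPRED3 call between guides was lost in 4 of the fits that left out 1 library of guide 1 (replicate 1 or 3) or of guide 2 (replicate 1 or 3), with adjusted p of 0.101, 0.127, 0.167 and 0.0966.

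In trametinib the knockout pattern was another one. SPRY1 and SPRY2 were higher in knockout than in control cells and SPRY4, SPRED1, SPRED2 and SPRED3 lower, in a comparison where 27.1% of all genes were called higher and 28.8% lower. SPRY1 measured 0.367, 0.348 and 0.406 CPM with guide 1 and 0.730, 0.524 and 0.796 CPM with guide 2, above all 3 control libraries, which did not exceed 0.147 CPM. The log2 difference was 2.20 ± 0.26 (adjusted p = 4.14e-10). All these libraries held 33 to 68 counts of SPRY1, against 4 to 12 in control cells. SPRY2 was higher by 0.50 ± 0.06 on the log2 scale (adjusted p = 4.39e-10), at 6.40 to 7.49 CPM with guide 1 and 6.32 to 7.05 CPM with guide 2 against 4.48 to 5.34 CPM in control cells.

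SPRY4, by contrast, remained lower in knockout cells treated with trametinib, at 1.09, 0.992 and 1.24 CPM with guide 1 and 0.881, 0.639 and 0.831 CPM with guide 2, below the lowest control library at 1.48 CPM (log2 difference -0.82 ± 0.09, adjusted p = 6.77e-11). In this drug guide 2 was above guide 1 for SPRY1 (0.88 ± 0.20, adjusted p = 0.000775). It was below guide 1 for SPRY4 (-0.49 ± 0.12, adjusted p = 0.0021), SPRED1 (-0.25 ± 0.05) and SPRED3 (-0.20 ± 0.06). SPRY2 and SPRED2 were not called, and 19.7% of all genes differed between guides here. The SPRY4 call was lost without guide 2 replicate 2 (-0.37, adjusted p = 0.0718). Against control cells, SPRED1 was lower in knockout cells by -0.70 ± 0.04, SPRED2 by -0.47 ± 0.04 and SPRED3 by -0.37 ± 0.05. These are log2 values, with adjusted p of 1.95e-09 or less. SPRED2 and SPRED3, which were higher than control in DMSO, were thus lower than control in trametinib, with no overlap of libraries in either treatment.

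In vemurafenib the knockout differences of all members but SPRY1 were small. SPRY1 measured 1.65, 1.97 and 1.44 CPM with guide 1 and 2.01, 2.85 and 2.55 CPM with guide 2, against 0.445 to 0.528 CPM in control cells, a log2 difference of 2.07 ± 0.15 (adjusted p = 3.62e-17). Guide 2 was above guide 1 in SPRY1 (0.55 ± 0.12, adjusted p = 0.000795), where 16% of all genes differed between guides. It was below guide 1 in SPRY2 (-0.41 ± 0.05, adjusted p = 4.96e-09) and SPRED1 (-0.25 ± 0.04, adjusted p = 2.93e-05). Against control cells, SPRED3 was higher in knockout cells by 0.30 ± 0.04 (adjusted p = 1.57e-08), and SPRED1 was lower (-0.23 ± 0.04, adjusted p = 1.21e-06). SPRY2 (-0.21 ± 0.04, adjusted p = 2.33e-05) and SPRY4 (-0.16 ± 0.06, adjusted p = 0.0129) were called lower, but with guide 1 alone neither was: its log2 difference from control was -0.01 for SPRY2 (adjusted p = 0.926) and -0.12 for SPRY4 (adjusted p = 0.125). The SPRY4 call was also lost without control replicate 2 (-0.15, adjusted p = 0.0587). SPRED2 did not pass the test (-0.07 ± 0.03, adjusted p = 0.089), and without the same control library it did (-0.10, adjusted p = 0.0181). In this comparison 2 members were called higher and 3 lower, beside 27.3% and 28.3% of all genes. With guide 1 alone 3 members were called in either direction, beside 48.5% of all genes.

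**Figure D3:**
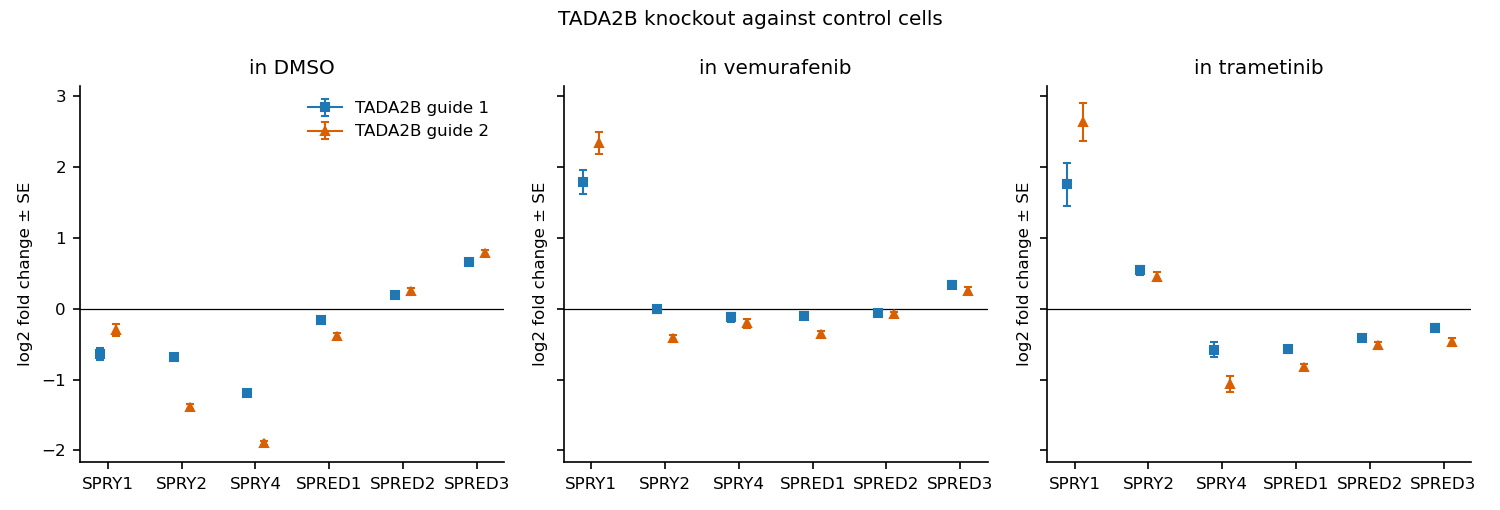
Log2 difference of each TADA2B guide from the control guide in DMSO, vemurafenib and trametinib, with standard errors as bars. SPRY1 lies below 0 in DMSO and between 1.76 and 2.64 in the drugs, SPRY4 lies below 0 in every panel, and SPRED2 and SPRED3 lie above 0 in DMSO and below 0 in trametinib.

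The third question, whether drug responses differed between knockout and control cells, is tested by the interaction term, which subtracts the log2 response of control cells from that of knockout cells. With trametinib it was called for 6 of 6 members, where 20.8% of all genes were called higher and 23.2% lower, and its sign followed the subfamily. It was positive, a smaller fall in knockout cells, for SPRY1 (2.67 ± 0.27, adjusted p = 6.42e-12), SPRY2 (1.53 ± 0.07, adjusted p = 3.02e-24) and SPRY4 (0.72 ± 0.09, adjusted p = 9.66e-09). It was negative, a larger fall in knockout cells, for SPRED3 (-1.09 ± 0.06, adjusted p = 6.96e-21), SPRED2 (-0.69 ± 0.05, adjusted p = 1.93e-16) and SPRED1 (-0.42 ± 0.06, adjusted p = 1.95e-08). Trametinib thus lowered SPRY1 166.2-fold in control cells and 26.1-fold in knockout cells, while it lowered SPRED3 4.39-fold in control cells and 9.34-fold in knockout cells.

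With vemurafenib the interaction was called for 5 of 6 members, where 20% of all genes were called higher and 22.4% lower. It was positive for SPRY1 (2.54 ± 0.16), SPRY4 (1.38 ± 0.06) and SPRY2 (0.82 ± 0.05) and negative for SPRED3 (-0.42 ± 0.05) and SPRED2 (-0.29 ± 0.05), with adjusted p of 1.24e-06 or less. For SPRED1 it was 0.04 ± 0.05 (adjusted p = 0.558). These interactions share the DMSO libraries with those of trametinib. A smaller fold did not always mean a higher level, because the starting level differed too: SPRY4 fell 39.6-fold with vemurafenib in knockout cells against 103.1-fold in control cells, yet ended at 3.94 ± 0.156 CPM with guide 1 and 3.73 ± 0.193 CPM with guide 2 against 4.30 ± 0.116 CPM in control cells.

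The gap between the drugs also differed between knockout and control cells, a comparison chosen after the results were seen and free of the DMSO libraries. The vemurafenib minus trametinib difference was wider in knockout cells for SPRED3 by 0.67 ± 0.06, SPRY4 by 0.66 ± 0.11, SPRED1 by 0.46 ± 0.06 and SPRED2 by 0.40 ± 0.05 on the log2 scale. It was narrower for SPRY2 (-0.71 ± 0.07), and for SPRY1 it was -0.13 ± 0.32 (adjusted p = 0.912). The 5 called members had adjusted p of 1.26e-05 or less, in a comparison where 5.9% of all genes were called.

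The order of the 9 groups by mean level differed between members. SPRY2, SPRY4 and SPRED1 were highest in control cells with DMSO, followed by guide 1 and then guide 2 with DMSO, with no overlap between neighbours. SPRY1 was also highest in control cells with DMSO, but guide 2 came before guide 1. SPRED2 and SPRED3 were highest with guide 2 in DMSO, then guide 1, then control cells, again with no overlap. The lowest group was control cells with trametinib for SPRY1 and SPRY2 and guide 2 cells with trametinib for SPRY4 and the 3 SPRED genes. For SPRY1 guide 2 cells with trametinib, at 0.524 to 0.796 CPM, overlapped control cells with vemurafenib, at 0.445 to 0.528 CPM, although within each population trametinib libraries lay below vemurafenib libraries. Other neighbours that overlapped were guide 1 with control cells and guide 2 with guide 1 in vemurafenib for SPRED2, guide 1 with control cells in vemurafenib for SPRY2, guide 2 with guide 1 in vemurafenib for SPRY4, and guide 2 with guide 1 in trametinib for SPRY2 and SPRED2.

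Levels of different members were compared per kilobase of merged exons. In control cells with DMSO the 6 genes summed to 201.3 ± 1.40 CPM per kilobase (SD, n = 3), of which SPRY2 made up 40.8% ± 0.267, SPRY4 33.5% ± 0.165, SPRED2 10.3% ± 0.0728, SPRED1 9.29% ± 0.311, SPRED3 3.79% ± 0.203 and SPRY1 2.30% ± 0.109. The 3 Sprouty genes together held 76.7% ± 0.290. With trametinib the sum fell to 14.9 ± 0.407 CPM per kilobase, 7.38% of the DMSO sum, and the 3 SPRED genes held 87.3% ± 0.518 of it. With vemurafenib the sum was 31.4 ± 0.400 CPM per kilobase, 15.6% of the DMSO sum, and the SPRED genes held 73.8% ± 1.37. The family thus changed from mostly Sprouty to mostly SPRED transcripts with either drug, in each library of control cells.

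In sum and Sprouty share, knockout cells with DMSO stood between control cells with DMSO and control cells with a drug. Single genes did not all do so: SPRED2 and SPRED3 were higher than in control cells with DMSO, whereas both drugs lowered them. The sum in knockout cells was 135.9 ± 1.31 CPM per kilobase with guide 1 and 105.4 ± 1.74 with guide 2, 67.5% and 52.4% of that in control cells. The Sprouty share was 61.5% ± 0.10 with guide 1 and 50.7% ± 0.362 with guide 2, both below the lowest control library at 76.4%. In trametinib the direction was opposite: the Sprouty share was 21.7% ± 0.986 with guide 1 and 23.2% ± 1.92 with guide 2 against 12.7% ± 0.518 in control cells, with no overlap. In vemurafenib it was 27.0% ± 1.37 and 24.4% ± 0.546 against 26.2% ± 1.37 in control cells, and guide 1 overlapped the control libraries while guide 2 lay below them. The shares depend on the length assigned to each gene: with the longest transcript in place of merged exons, 42 of 54 shares of single genes in single groups moved by more than 1 SD.

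**Figure D4:**
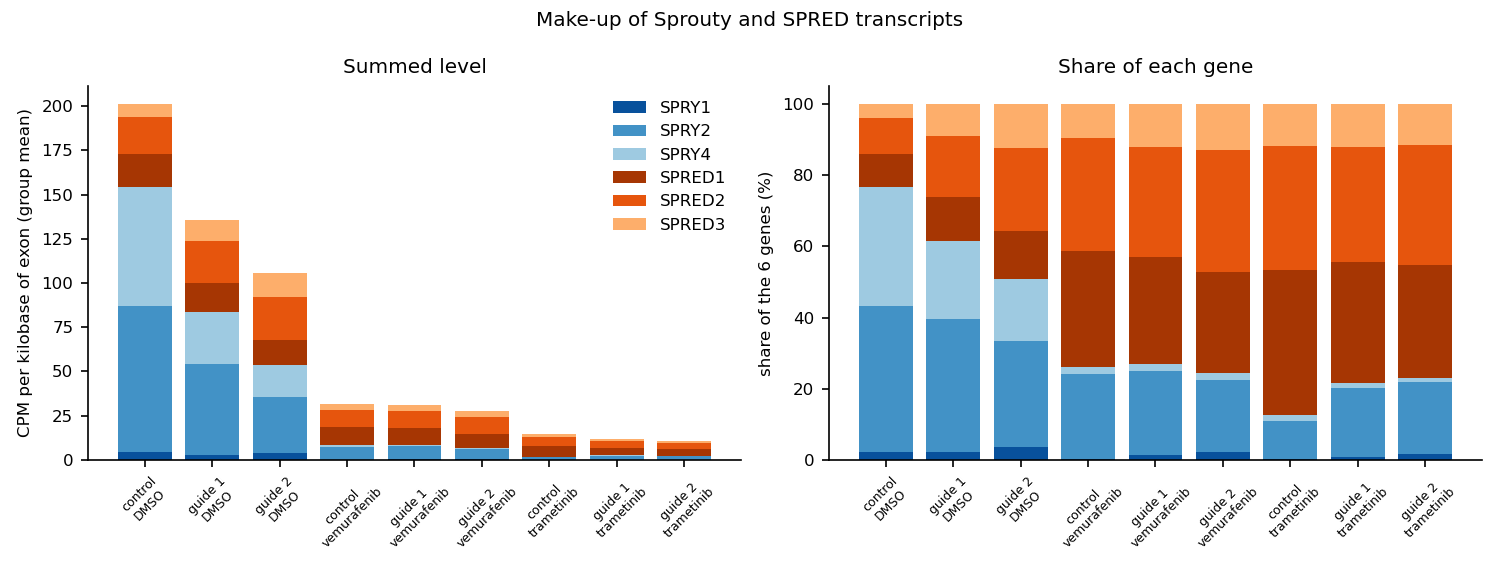
Summed level of the 6 genes in CPM per kilobase of merged exons (left) and the share of each gene in percent (right), as group means of 3 libraries. Blue marks Sprouty genes and orange SPRED genes. The sum falls from 201.3 to 14.9 with trametinib in control cells, and orange fills most of every drug-treated bar.

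Genes whose profile over the 9 groups was most like that of a member were taken from 12161 protein-coding genes, by the smallest root mean square difference of centred mean log2-CPM. Nearest to SPRY4 was ETV4, an ETS transcription factor, with a difference of 0.608 and Pearson r = 0.988 over 9 groups, then ETV5, another ETS factor (0.781), and CEMIP, which takes part in hyaluronan breakdown (0.786). Nearest to SPRY2 were TGFA, a ligand of EGFR (0.415), ITGB3, an integrin subunit (0.452), and MYC (0.58). Nearest to SPRY1 were LRATD2 (0.558), AMIGO2, an adhesion protein (0.647), and SLCO4A1, an organic anion transporter (0.712). Nearest to the SPRED genes were SLC2A3, a glucose transporter (0.188), RNF125, a ubiquitin ligase (0.237), and STK32B (0.269) for SPRED1, PHLDA1 (0.241), the ETS factor ETV1 (0.255) and TRIB1, a pseudokinase (0.256), for SPRED2, and PRRX1, a homeobox factor (0.314), TRIB2 (0.331) and ETV1 (0.374) for SPRED3. The groups share a cell line, the drugs dominate every profile, and the difference grows with a gene's own range, so these values are descriptions and are not ranked between members.

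Other genes of the pathway were read from 5 lists. The lists were chosen with earlier results of these data known, so the counts from them are descriptions. Among 16 targets of ERK outside the family, 16 fell with trametinib in control cells and 0 rose, beside 32.5% and 36.4% of all genes, with a median log2 fold change of -3.55. DUSP6, a phosphatase that inactivates ERK, fell by 7.12 ± 0.07 and ETV4 by 7.00 ± 0.06 on the log2 scale, somewhat less than SPRY4. With vemurafenib 15 of 16 fell, beside 31.6% of all genes, and the median was -2.45. Between the drugs, 14 of 16 were higher with vemurafenib than with trametinib and 2 lower, beside 8.78% and 7.56% of all genes. DUSP6 fell by only 3.41 ± 0.05 with vemurafenib, and its difference between the drugs, 3.72 ± 0.08 (adjusted p = 9.58e-36), was larger than the value of any of the 6 members. The 2 lower ones were DUSP5, another phosphatase (-0.36 ± 0.05, adjusted p = 4.56e-07), and EGR3, a zinc finger factor (-0.22 ± 0.07, adjusted p = 0.0271). In knockout cells with DMSO the list split evenly, with 7 higher, 7 lower and 2 not called, beside 29.3% and 28.6% of all genes, and a median of 0.01. EGR2 was higher (4.06 ± 0.29) and MYC lower (-1.22 ± 0.07). EGR2 was imprecisely measured in control cells, where its change with trametinib was -1.30 ± 0.52. In knockout cells with DMSO, DUSP6 (0.25 ± 0.03, adjusted p = 1.84e-08) lay in the opposite direction to SPRY4 and SPRY2. ETV4 (-0.43 ± 0.03) and ETV5 (-0.58 ± 0.03) lay in the same direction as SPRY4 and SPRY2.

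The 20 genes of the RAS-ERK cascade, from adaptors and RAS to kinases below ERK, had a median log2 fold change of -0.01 with trametinib in control cells, with 9 higher, 10 lower and 1 not called, beside 36.4% higher and 32.5% lower over all genes. GAB1, a docking protein, rose by 2.47 ± 0.05 and RPS6KA3, a kinase activated by ERK, fell by 1.34 ± 0.03. In knockout cells with DMSO 7 were higher, 9 lower and 4 not called, beside 29.3% and 28.6% of all genes. KSR1, a scaffold of the cascade, was higher (0.97 ± 0.06) and RPS6KA3 lower (-1.04 ± 0.03).

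Of the 10 binding partners of Sprouty and SPRED proteins, 3 were higher, 5 lower and 2 not called with trametinib in control cells, beside 36.4% higher and 32.5% lower over all genes, with a median of -0.11. CAV1, the caveolar protein, fell most (-2.25 ± 0.04) and then SIAH2, a ubiquitin ligase (-0.53 ± 0.05). NF1, whose product SPRED proteins recruit, was lower with trametinib (-0.21 ± 0.03, adjusted p = 3.66e-08) and CBL was lower too (-0.36 ± 0.04, adjusted p = 3.37e-12). In knockout cells with DMSO 4 were higher, 4 lower and 2 not called, beside 29.3% and 28.6% of all genes, among them NF1 (-0.28 ± 0.03) and CBL (-0.36 ± 0.03) lower and TESK1, a kinase that binds Sprouty (0.51 ± 0.05), higher. In trametinib CAV1 was higher in knockout than in control cells (2.24 ± 0.03, adjusted p = 1.51e-44).

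Of 12 other brakes on receptors and RAS, 6 rose and 4 fell with trametinib in control cells and 2 were not called, beside 36.4% and 32.5% of all genes, with a median of 0.05. ERRFI1, an inhibitor of EGFR, fell by 2.78 ± 0.03, whereas SPRY3, the Sprouty gene outside the 6, rose by 1.62 ± 0.10 (adjusted p = 6.22e-19). SPRY3 was higher in knockout cells with DMSO as well (1.28 ± 0.10, adjusted p = 2.79e-16), where SPRY1, SPRY2 and SPRY4 were lower, and ERRFI1 was higher (1.07 ± 0.03). Of 14 receptor tyrosine kinases, 7 rose and 6 fell with trametinib in control cells and 1 was not called, beside the same shares of all genes. EGFR fell by 2.33 ± 0.07 and FGFR2 rose by 4.78 ± 0.20, and in knockout cells with DMSO EGFR was higher (1.80 ± 0.05) and KDR (-1.87 ± 0.08) and ERBB3 (-1.53 ± 0.02) lower.

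**Figure D5:**
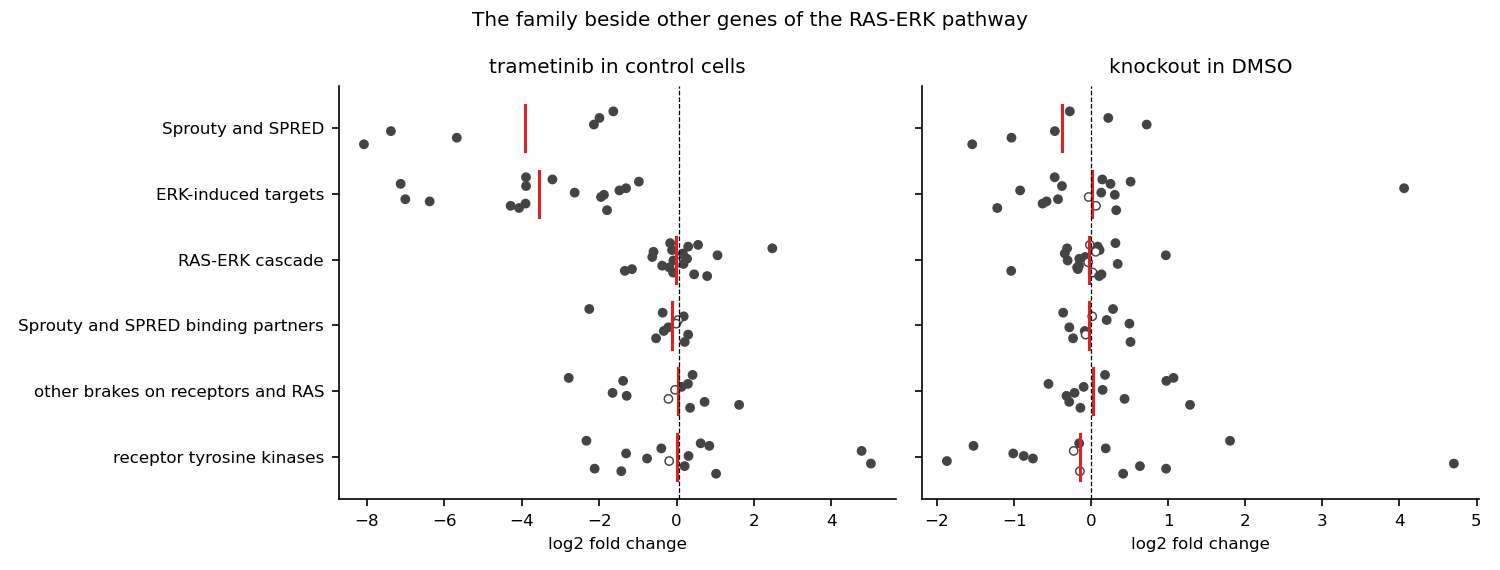
Log2 fold change of each gene in the family and in 5 lists of the RAS-ERK pathway, with trametinib in control cells (left) and for the knockout in DMSO (right). Each point is a gene, open points did not pass the test, red lines are list medians and the dashed line is the median of all genes tested. The family and the ERK-induced targets lie left of the dashed line with trametinib, and the knockout medians lie within 0.4 of 0; the rightmost receptor in both panels is KIT, whose few counts give it a standard error of 1.58.

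Lineage markers moved with the same comparisons. The summed level of the 7 melanocyte markers was 1004 to 1076 CPM in control cells with DMSO, 552.6 to 566.8 with guide 1 and 343.7 to 360.3 with guide 2, and it was 2235 to 2369 CPM in control cells with trametinib and 2311 to 2346 with vemurafenib. Most of the rise of this sum with the drugs in control cells came from DCT, a melanin enzyme, which averaged 0.938 CPM in control cells with DMSO and reached 1063 CPM. With trametinib in control cells SOX10 rose by 0.24 ± 0.04 and S100B fell by 0.12 ± 0.04 on the log2 scale. SOX10 was lower in knockout cells with DMSO (-1.32 ± 0.03). The 5 fibroblast markers summed to 32.7 to 33.8 CPM in control cells with DMSO, 58.1 to 59.4 with guide 1 and 68.6 to 74.1 with guide 2, and to 57.1 to 62.6 CPM in control cells with trametinib. They include LUM (1.77 ± 0.06 in knockout cells with DMSO) and COL1A1 (1.37 ± 0.07). The markers did not move alike with trametinib in control cells. DCN (2.09 ± 0.135) and PDGFRB (1.02 ± 0.05) rose, and COL1A1 (0.38 ± 0.08) and LUM (0.23 ± 0.07) rose less. COL1A2 fell (-2.81 ± 0.82) and did not exceed 0.273 CPM in any library. The leukocyte sum was 16.7 to 17.2 CPM in control cells with DMSO, 34.4 to 36.0 with guide 1 and 24.8 to 25.4 with guide 2, nearly all of it LYZ. Of the keratins of skin, KRT1 was at 0 in every library, but KRT10 lay between 37.4 and 55.13 CPM and KRT14 between 3.32 and 15.05 CPM. The part of these markers in the family's differences was not tested.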

How the data were processed

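The authors deposited 1 table of raw read counts per gene for the 27 libraries (polyA RNA, KAPA Stranded mRNA-Seq Kit, per the labels' protocols). Per the submitters' processing notes, bcl2fastq, HISAT2 and HTSeq were used with hg38. Not given in the sources used here were tool versions, the annotation release and the strand setting. The 58721 Ensembl identifiers all occurred in GENCODE 29, which gave symbols, lengths and coordinates, and 0 rows named no gene. Groups came from sample titles.

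Genes were filtered with filterByExpr (25199 kept), normalized with TMM (factors 0.866 to 1.09) and tested with edgeR 4.0.16 (R 4.3.3), quasi-likelihood, with 1 mean per group over the 27 libraries (18 residual degrees of freedom). Calls were made at a Benjamini-Hochberg adjusted p under 0.05 over all genes tested. Knockout effects average both guides. Errors are SE for log2 values and SD for levels. The SE was computed back from the test, as the absolute log2 value divided by the square root of the F statistic. It can be too small for a large fall to few counts. For SPRY1 in control cells it was 0.165 for trametinib against DMSO. It was 0.293 for vemurafenib against trametinib, which uses the same trametinib libraries. A change of total RNA per cell would not show, since TMM scales to most genes. Library pairs within a group differed beyond sampling noise (chi-square per degree of freedom 2.88 to 11.9 over 27 pairs).

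Named were all 6 members, TADA2B, overlapping genes, 3 like-profile genes per member, and per list the called genes with the 2 largest rises and falls at most. DUSP6, ETV4, ETV5, NF1, CBL, CAV1, SPRY3, EGR3, DUSP5 and the marker genes were also named after their values were seen where the rule did not pick them. Members and lists were chosen with earlier results of these data known. Tests were checked on simulated counts, with known changes given only to well-counted genes in the control trametinib group. That check does not cover low-count results, such as SPRY1 with trametinib, or a drug that changes most genes. Alternatives were DESeq2 1.42.0 (size factors, Wald test), limma voom 3.58.1, no filter, only the groups compared, each guide alone, a replicate block and each library left out.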

Additional observations from a re-analysis of the deposited data

Results flagged for a closer look

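The interaction test called a drug response that differed between knockout and control cells for the following members. Values are the log2 response in knockout cells minus that in control cells. Each value thus includes the difference between knockout and control cells in DMSO. For trametinib the values were 2.67 for SPRY1, 1.53 for SPRY2, 0.72 for SPRY4, -0.42 for SPRED1, -0.69 for SPRED2 and -1.09 for SPRED3. For vemurafenib they were 2.54 for SPRY1, 1.38 for SPRY4, 0.82 for SPRY2, -0.29 for SPRED2 and -0.42 for SPRED3. Positive values are smaller falls in knockout cells and negative values larger falls. Both sets rest on the same DMSO libraries.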

How the results depend on the processing

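Over the 14 comparisons, 84 member results were recomputed 1410 times: 1396 kept the side of the threshold, 12 lost the call, 2 gained it and 0 reversed. A change of direction counted as reversed only where the main or the recomputed result was called. The number of members called for the knockout in vemurafenib was 3 with guide 1 alone against 5 with both guides, since SPRY2 and SPRY4 were not called there. SPRY4 in that comparison was also not called by limma voom (adjusted p = 0.077) or with only the groups compared (adjusted p = 0.138). The SPRY4 difference between guides in trametinib was lost with only the groups compared (adjusted p = 0.06) and the SPRED3 difference in DMSO without the filter on low counts (adjusted p = 0.0607). The SPRED2 difference between guides in trametinib was gained without guide 2 replicate 2 (-0.17, adjusted p = 0.00686). The cause was not tested. Among all genes, vemurafenib against trametinib in knockout cells called 4826 with both guides and 2795 with guide 2 alone. Each guide alone contrasts fewer libraries than both, and the guides also differed. Genes called higher with vemurafenib were 2025 with guide 1 alone and 1481 with guide 2 alone. The reason for this difference was not tested. DESeq2's size factors moved no median by more than 0.0208 on the log2 scale.

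No general pairing by replicate number was seen: same-numbered libraries had a median correlation of 0.005 (-0.353 to 0.347), against a median of -0.001 for other numbers. Of 108 same-numbered pairs 15 were over 0.1, and 12 of 27 libraries correlated best with their own number. A pairing of only some libraries would not show in the median. With the replicate block 0 of 84 member calls changed, and the count of genes called was 0.972 to 0.999 times that without it. Depth limits SPRY1 with trametinib in control cells most, at 26 counts in all; leaving out 1 library at a time, its fold change lay between -7.66 and -7.09 and the knockout difference between 1.91 and 2.48.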
